A study of Mus musculus with 6 samples.

Results

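The genes described here are the 4 mouse Notch receptors, 5 ligands of the DSL family (the Delta-like and Jagged proteins) and Lfng. They were taken by name from a table of 23235 RNA-seq entries, and each of the 10 names matched 1 entry. RNA-seq was carried out on E14Tg2a, a line of mouse embryonic stem cells used between passages 37 and 40. ESCs grown with LIF, the cytokine that sustains self-renewal, gave 3 samples, and 3 samples came from monolayers of the same line deprived of LIF and given 1 µM retinoic acid (RA) for 48 h, which the study calls Neuronal Cells (NCs). LIF was withdrawn as RA was added, so the effects of these changes cannot be told apart. Each value given is the deposited FPKM (fragments counted on a gene, divided by transcript length and by sequencing depth) of 1 gene in 1 condition. The table holds 1 value per condition, estimated from 3 samples together, so no SD can be given, no difference was tested, and a ratio describes these pooled values without a replicate check.

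In Notch signaling a transmembrane ligand on 1 cell binds a Notch receptor on its neighbour. The bound receptor is cleaved by an ADAM protease and then by γ-secretase, and the freed intracellular domain joins the DNA-binding protein RBPJ and a Mastermind coactivator to switch on genes such as those of the Hes and Hey families. In the embryonic nervous system the pathway keeps neighbouring progenitors from becoming neurons together, and in presomitic mesoderm it takes part in the segmentation clock. Lfng encodes Lunatic fringe, a glycosyltransferase that adds a sugar to the receptor and so alters its response to Delta-like and Jagged ligands.

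Notch3 was the receptor and Jag2 the ligand with the highest FPKM in both conditions, and the order of the genes below them differed. Notch1, Notch3 and Notch4, Dll1, Dll3, Jag1 and Jag2 had the lower FPKM in NCs. Notch2, Lfng and the scarcely expressed Dll4 had the higher FPKM in NCs. With at least 1 FPKM in 1 condition as the limit for counting a gene, 9 of the 10 genes were counted and Dll4 was not. Of these 9, 3 were at least 2-fold lower in NCs (Notch4, Dll3 and Jag1) and 0 were at least 2-fold higher. Among all 13293 genes counted, 10.6% were at least 2-fold lower and 12.5% at least 2-fold higher in NCs. The median log2 ratio of NC to ESC was -0.52 over the 9 genes and -0.03 over all genes counted.

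**Figure D1:**
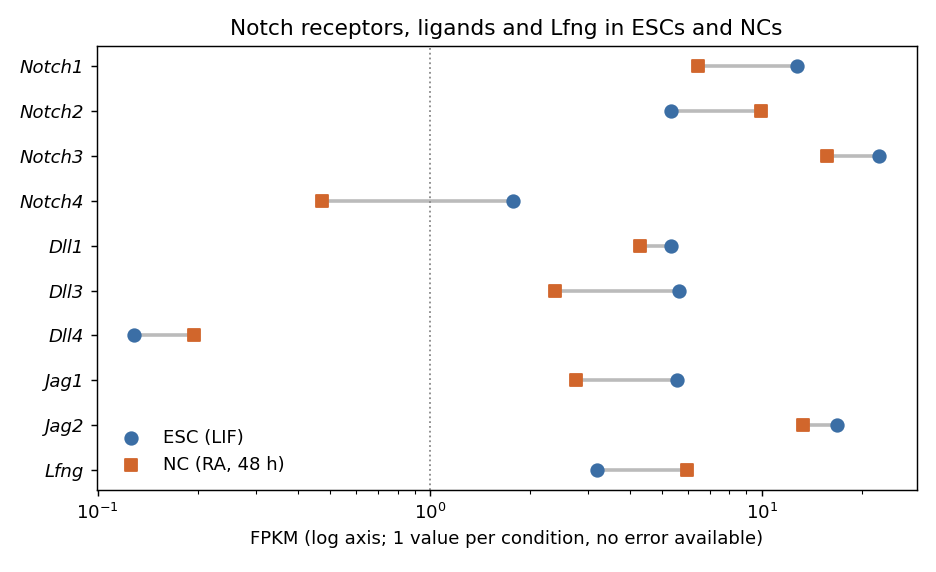
FPKM (log axis) of each gene in ESCs (circles) and NCs (squares), 1 pooled value per condition and so without error bars; the dotted line marks 1 FPKM. Notch2, Lfng and Dll4 have the square to the right of the circle, and Notch4 has the longest line, from 1.79 FPKM in ESCs to 0.475 FPKM in NCs.

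Of the receptors, Notch3 had the most mRNA per length in both conditions. It had 22.6 FPKM in ESCs against 15.7 in NCs, 1.44-fold lower in NCs, and 69.0% of the genes counted lay below it in ESCs. Notch1, the receptor most studied in neural progenitors, had 12.8 FPKM in ESCs against 6.42 in NCs. Its log2 ratio of -0.99 fell just inside the 2-fold limit, and 10.6% of the genes counted had a lower ratio. Notch2, a close relative of Notch1, went the other way, with 5.32 FPKM in ESCs against 9.97 in NCs, 1.87-fold higher in NCs. Notch4, known best from blood vessel endothelium, had 1.79 FPKM in ESCs against 0.475 in NCs. It was 3.76-fold lower in NCs, the largest difference of the 10 genes, and 3.65% of the genes counted had a lower ratio.

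These differences changed the order of the receptors. Notch1 stood above Notch2 in ESCs and below it in NCs, with Notch3 above and Notch4 below both in each condition. The ratio of Notch2 to Notch1 was 0.417 in ESCs and 1.55 in NCs, a 3.73-fold difference. A ratio between genes within a condition does not depend on how the conditions are scaled to each other. Notch2 made up 12.5% of the summed receptor FPKM in ESCs and 30.6% in NCs, while Notch1 made up 30.1% and 19.7%. Notch3 kept the greatest share, 53.2% in ESCs and 48.3% in NCs, and Notch4 had 4.21% and 1.46%. The summed FPKM of the receptors was 42.5 in ESCs and 32.6 in NCs.

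Among the ligands, Jag2 was the most abundant per length in both conditions. It had 16.9 FPKM in ESCs against 13.4 in NCs, and its share of the summed ligand FPKM was 50.4% in ESCs and 58.1% in NCs. Jag1, the other Jagged ligand, had 5.54 FPKM in ESCs against 2.76 in NCs, 2.01-fold lower and so just past the 2-fold limit. Dll3, a divergent member that is not known to activate receptors on neighbouring cells, had 5.62 FPKM in ESCs against 2.38 in NCs, 2.36-fold lower. Dll1, the Delta-like ligand best known from neurogenesis and somite formation, had 5.33 FPKM in ESCs against 4.31 in NCs, 1.24-fold lower. Dll3, Jag1 and Dll1 thus lay close together in ESCs, and in NCs Dll1 stood above Jag1 and Dll3.

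Dll4, an endothelial ligand, had 0.129 FPKM in ESCs against 0.196 in NCs, and 1.11% and 0.685% of the genes counted lay below those levels. From the size of the smallest values in the table, these levels rest on an estimated 33.1 fragments in ESCs and 51.3 in NCs. The 95% interval of its log2 ratio, for counting error alone, ran from -0.025 to 1.24 and included 0. The summed FPKM of the ligands was 33.5 in ESCs and 23.0 in NCs. The receptors' sum divided by the ligands' sum was 1.27 in ESCs and 1.42 in NCs.

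**Figure D2:**
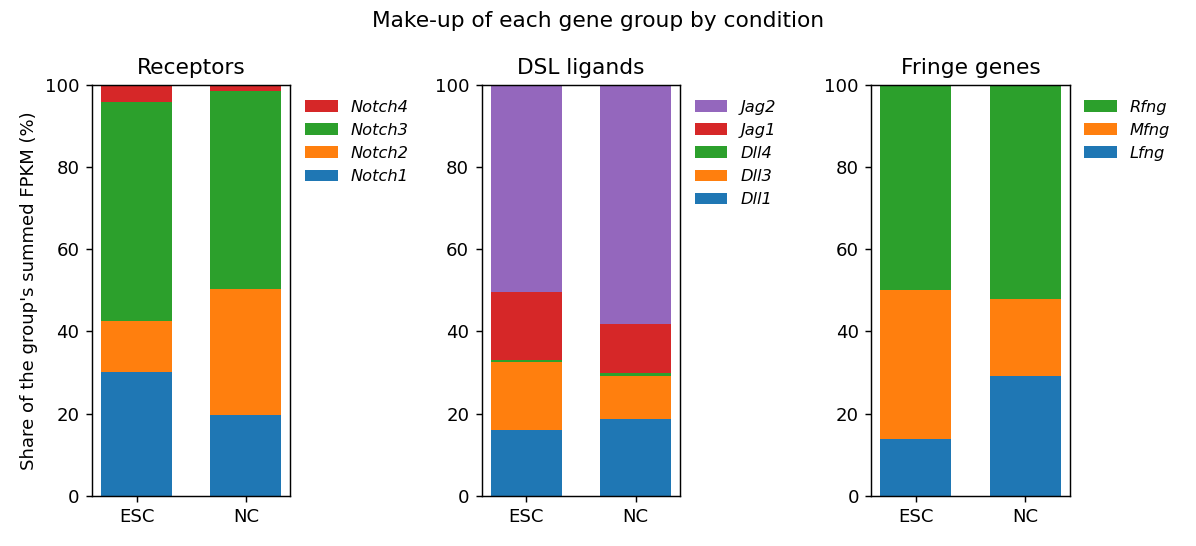
Stacked bars give each gene's share (%) of the summed FPKM of its group in ESCs and in NCs, for the receptors, the DSL ligands and the 3 fringe genes. Notch2 widened from 12.5% to 30.6% of the receptors and Lfng from 13.7% to 29.1% of the fringe genes, while Jag2 stayed the widest ligand band.

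Lfng had 3.19 FPKM in ESCs against 5.97 in NCs, 1.87-fold higher in NCs, and 13.5% of the genes counted had a higher ratio. Its paralogs encode glycosyltransferases of the same kind. Mfng (Manic fringe) had 8.52 FPKM in ESCs against 3.87 in NCs, 2.20-fold lower, and Rfng (Radical fringe) had 11.6 FPKM in ESCs against 10.7 in NCs. Lfng was thus the lowest of the 3 fringe genes in ESCs and stood above Mfng in NCs. The ratio of Lfng to Mfng was 0.375 in ESCs and 1.54 in NCs, a 4.11-fold difference. Their summed FPKM was 23.3 in ESCs and 20.5 in NCs.

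The calls at 2-fold depended on how the conditions were scaled to each other. The deposited FPKM of all entries add up to 770592 (ESCs) and 628679 (NCs). Rescaling both conditions to the same total adds 0.29 to every log2 ratio. On that scale Notch2 and Lfng were 2.30-fold and 2.29-fold higher in NCs, Notch4 alone was at least 2-fold lower, and 17.7% of all genes counted were at least 2-fold higher and 7.37% at least 2-fold lower. No scaling turned the direction of any of the 10 genes. Each raised every log2 ratio, so only the genes lower in NCs could have turned. With equal totals the log2 ratios of Dll1 and Jag2 were -0.015 and -0.047. Entries picked by the start of their names, chiefly to take ribosomal protein, small RNA and Gm-numbered entries, held 41.8% of the total in ESCs and 37.9% in NCs. Such a set can also hold mitochondrial entries and protein-coding genes whose names start with Rn. Adding 1 FPKM to every value left 0 of the 9 genes at least 2-fold lower.

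**Figure D3:**
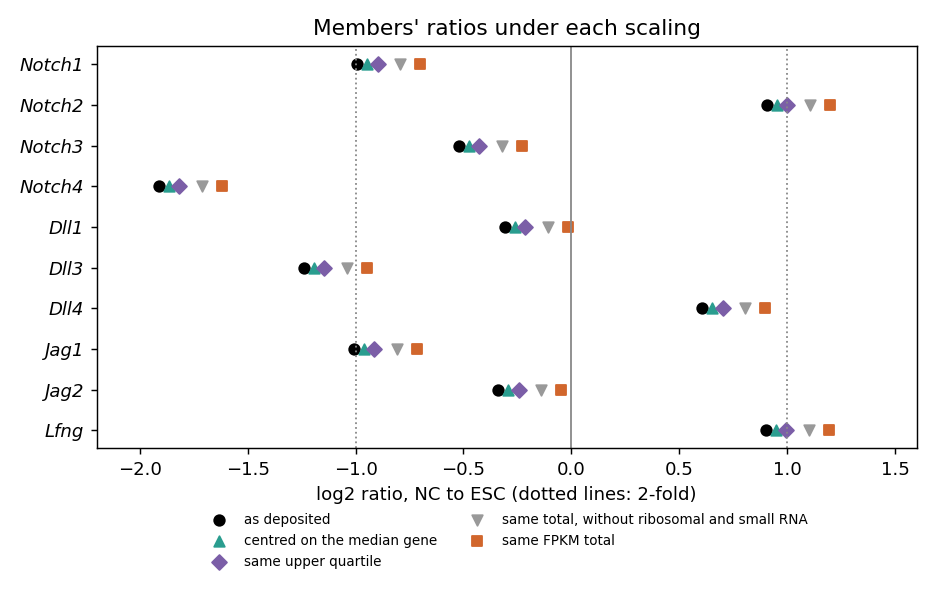
Log2 ratio of NC to ESC for each gene under 5 scalings of the same deposited values; the solid line marks equal values and the dotted lines 2-fold. Every gene keeps its side of the solid line, while Jag1 and Dll3 (left dotted line) and Notch2 and Lfng (right dotted line) cross the 2-fold limit.

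The precision that counting gives was estimated from the fragments behind each value. Notch1 rests on an estimated 8602 fragments in ESCs and 4407 in NCs, and the 95% counting interval of its log2 ratio ran from -1.05 to -0.94. That of Jag1 ran from -1.11 to -0.90. Both intervals include the 2-fold limit, so Jag1 and Notch1 cannot be placed on different sides of it. The interval of Notch4 ran from -2.13 to -1.70, and that of Dll3 from -1.41 to -1.08. The intervals of Notch2 (0.85 to 0.96) and Lfng (0.74 to 1.06) lay above 0. None of these intervals covers the spread between the 3 samples of a condition. Where neighbours in the order of levels are close, as Dll3, Jag1, Dll1 and Notch2 in ESCs (5.62 to 5.32 FPKM), their order could not be tested.

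All 10 genes have an annotated position on GRCm38, the assembly that mm10 names. Notch1 (chromosome 2, 26457903 to 26516663, minus strand) has 34 exons in its longest transcript, and Notch2 (chromosome 3, 98013527 to 98150361, plus strand) also has 34. Notch3 (chromosome 17, 32120820 to 32166852, minus strand), Notch4 (chromosome 17, 34564268 to 34588503, plus strand) and Dll1 (chromosome 17, 15367354 to 15376872, minus strand) share a chromosome. Dll3 lies on chromosome 7 (28293553 to 28302238, minus strand), Dll4 on chromosome 2 (119325784 to 119335962, plus strand) and Jag1 on chromosome 2 (137081456 to 137116644, minus strand). Jag2 lies on chromosome 12 (112907819 to 112929776, minus strand) and Lfng on chromosome 5 (140607320 to 140615545, plus strand).

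Sequence shared with other genes, where reads cannot be assigned to 1 gene, was short. Notch2 shares 3.86% of the 50-base words of its longest transcript with another gene, Gm42820, which overlaps it on the same strand. Notch3 shares 0.0879%, and the other 8 genes share 0%. An annotated gene lies on the opposite strand within or beside Notch1, Notch3, Notch4, Dll1 and Dll4. The methods do not state that strand was used in counting, so reads of such partners cannot be told apart from those of the gene.

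The study followed Notch1 by RT-qPCR as well, and its primers show which part of the mRNA that assay reads. Each primer matched the longest Notch1 transcript once, inside the coding sequence, in neighbouring exons, and the product spans 236 bases. The primers are printed 5′ to 3′ with their position on GRCm38.
Notch1 forward, chr2:26469605-26469627, exon 24: gattcatctgtaggtgccctgcg
Notch1 reverse, chr2:26468591-26468615, exon 25: gttctcggatgtgggctcacaggtg

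Promoter sequences are shown for Notch2 and Lfng, the counted genes with a higher FPKM in NCs, and for Notch4, Dll3 and Jag1, those at least 2-fold lower. RefSeq promoters (GRCm38.p6, 250 bases before to 50 after a start site) were found for all 10 genes, in 11 windows because Dll1 has 2. The 250 bases before the start are printed 5′ to 3′ on the gene's strand. Capitals mark matches on either strand to GTGGGAA (the RBPJ site), CAGCTG and CACGTG (E-boxes, sites of bHLH factors), CACGAG (an N-box, a site of Hes factors) or AGGTCA (a half-site of nuclear receptors such as the RA receptors).
Notch2, chr3:98013288-98013537, + strand: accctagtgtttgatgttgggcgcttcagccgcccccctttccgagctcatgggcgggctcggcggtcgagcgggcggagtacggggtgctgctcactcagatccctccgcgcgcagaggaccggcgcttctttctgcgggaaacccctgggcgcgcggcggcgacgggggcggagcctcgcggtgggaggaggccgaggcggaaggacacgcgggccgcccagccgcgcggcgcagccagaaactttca
Lfng, chr5:140607091-140607340, + strand: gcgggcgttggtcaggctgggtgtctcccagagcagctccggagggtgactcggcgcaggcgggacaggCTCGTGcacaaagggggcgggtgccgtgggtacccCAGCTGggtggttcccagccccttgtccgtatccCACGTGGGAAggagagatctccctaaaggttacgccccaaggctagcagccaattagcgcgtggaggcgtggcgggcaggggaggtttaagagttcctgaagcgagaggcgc
Notch4, chr17:34564045-34564294, + strand: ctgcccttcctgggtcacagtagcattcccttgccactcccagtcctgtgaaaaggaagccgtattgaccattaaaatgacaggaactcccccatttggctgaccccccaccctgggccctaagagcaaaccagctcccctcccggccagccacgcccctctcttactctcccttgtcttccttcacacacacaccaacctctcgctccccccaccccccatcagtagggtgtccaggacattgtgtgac
Dll3, chr7:28301786-28302035, - strand: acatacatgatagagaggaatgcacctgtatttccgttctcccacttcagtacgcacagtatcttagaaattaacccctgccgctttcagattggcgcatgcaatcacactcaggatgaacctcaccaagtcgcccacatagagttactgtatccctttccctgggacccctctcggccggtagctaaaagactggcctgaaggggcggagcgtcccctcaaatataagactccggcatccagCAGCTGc
Jag1, chr2:137116521-137116770, - strand: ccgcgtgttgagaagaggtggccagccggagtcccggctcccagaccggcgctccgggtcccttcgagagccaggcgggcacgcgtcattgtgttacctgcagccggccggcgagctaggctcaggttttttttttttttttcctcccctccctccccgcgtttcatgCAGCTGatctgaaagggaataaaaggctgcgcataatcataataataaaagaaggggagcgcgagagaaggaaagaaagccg

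Lfng was the only one of the 10 genes with GTGGGAA in its window, at position -109 from the start, and 6.38% of all 32851 RefSeq promoter windows hold these letters. It overlaps a CACGTG at position -112, letters that 7.15% of all windows hold and no other of the 10 genes does. CAGCTG occurred for Lfng, Dll1, Dll3 and Jag1, against 16.3% of all windows. AGGTCA occurred for Dll1, against 16.3% of all windows, and CACGAG for Lfng and Notch3, against 6.47%. Of the motifs given no capitals of their own, TGGGAA, the core within GTGGGAA, occurred for Lfng (25.6% of all windows). It matched at position -108, inside the capitals, and on the other strand as TTCCCA at -135, in lower case. The GC box GGGCGG occurred for 7 of the 10 genes (35.7%) and the TATA box TATAAA for none (13.6%). The windows of the genes differ in CpG dinucleotides, with 41 for Notch2, 22 for Lfng and 22 for Jag1, 11 for Dll3 and 5 for Notch4, beside a median of 7 over all windows. Of the genes not printed, Jag2 had 63, Notch3 25, Notch1 23 and Dll4 17. The 2 windows of Dll1 had 24 and 15. A match describes the letters in the window, and binding was not measured here.

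Other genes of the pathway were read from 9 lists. Of their 55 genes counted, 7 were at least 2-fold higher in NCs (12.7%) and 6 at least 2-fold lower (10.9%), shares close to those of all genes counted. Their median log2 ratio was 0.14. With equal FPKM totals the counts were 11 and 3.

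Of the 8 counted genes for cleavage of the receptor, 1 passed the 2-fold limit, upwards, and 7 were within it, with a median log2 ratio of 0.42. The gene past the limit was Adam10, which encodes the protease that makes the first ligand-induced cut, with 10.1 FPKM in ESCs against 21.05 in NCs. Psenen, a γ-secretase subunit and the highest of the list, had 76.7 FPKM in ESCs against 71.8 in NCs. Of the 7 glycosylation genes counted, Mfng alone was past 2-fold, and the highest was Poglut1 (20.7 and 25.0 FPKM in ESCs and NCs), which adds O-glucose. Of the 11 genes of receptor trafficking and turnover, 1 was at least 2-fold higher and 2 at least 2-fold lower, and all 3 belong to the Deltex family of ubiquitin ligases. Dtx1 had 14.1 FPKM in ESCs against 3.18 in NCs, 4.44-fold lower. Dtx3l was 2.21-fold lower, with 4.14 and 1.87 FPKM, and Dtx4 was 2.27-fold higher, with 3.55 and 8.08 FPKM. The ubiquitin ligase Nedd4 was the most abundant of this list, with 369 FPKM in ESCs against 380.0 in NCs. None of the 5 counted genes of ligand endocytosis passed the limit, and Epn1, the highest, had 49.1 and 48.2 FPKM.

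In the nucleus, RBPJ's gene and its coactivators did not move together. Rbpj had 67.2 FPKM in ESCs against 38.2 in NCs, 1.76-fold lower. Maml3, a Mastermind coactivator, had 0.513 FPKM in ESCs against 5.45 in NCs, 10.6-fold higher, and Maml1 was 2.06-fold higher, with 6.85 and 14.1 FPKM. Kat2b, a histone acetyltransferase, was 2.36-fold lower, with 12.7 and 5.39 FPKM. Snw1, the highest of the list in NCs, had 58.1 FPKM in ESCs, below Rbpj, and 71.8 in NCs. None of the 7 RBPJ corepressor genes passed the limit. The highest of them was Hdac1, a histone deacetylase, with 139 and 170.4 FPKM.

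Of 5 target genes counted, 1 passed the 2-fold limit, upwards, and 4 were within it. Hes5, a repressor typical of neural progenitors, had 0.592 FPKM in ESCs against 2.30 in NCs, 3.89-fold higher. Hes1, the highest of the list, had 20.1 FPKM in ESCs against 20.6 in NCs. Nrarp, a feedback inhibitor of the pathway, had 4.21 and 3.95 FPKM and Hey1 4.38 and 4.82 FPKM. Hey2 and Heyl, listed but under 1 FPKM in both conditions, went opposite ways. Hey2 had 0.806 FPKM in ESCs against 0.155 in NCs, and Heyl had 0.0264 against 0.167. Rbpj, Nrarp, Hey1, Hey2 and Heyl were named after their values were seen. With 1 FPKM added to every value, 4 of the 55 pathway genes were at least 2-fold higher and 3 at least 2-fold lower.

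**Figure D4:**
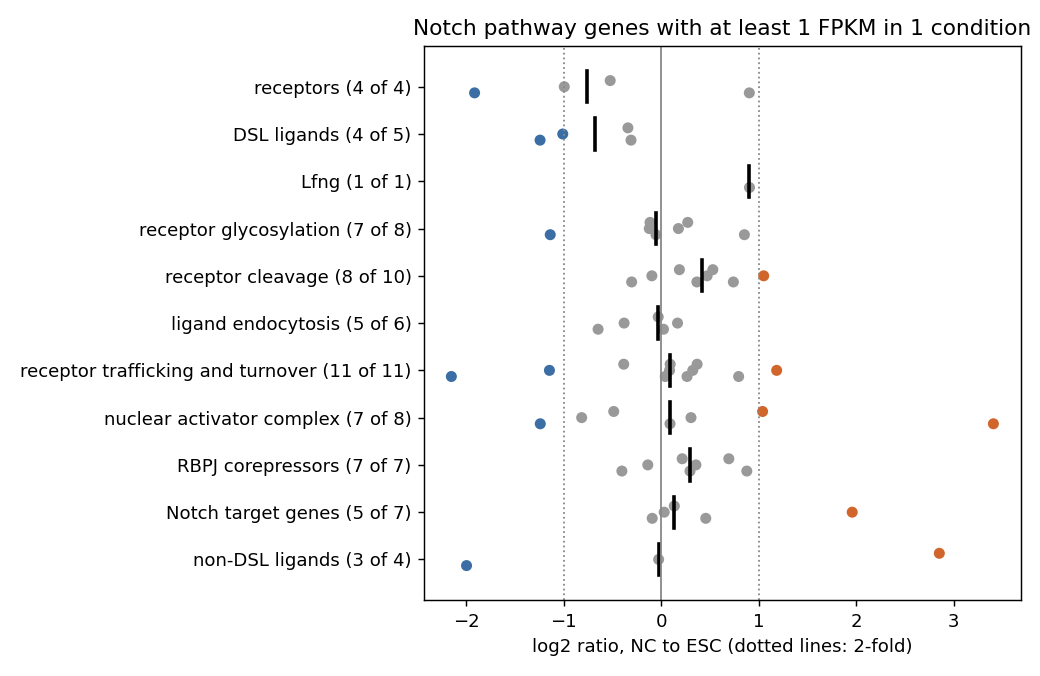
Log2 ratio of NC to ESC for each pathway gene with at least 1 FPKM in 1 condition, by list and without the proneural factors (genes shown of genes listed in brackets); bars are list medians, dotted lines 2-fold, and colours mark genes at least 2-fold lower (blue) or higher (orange). The median is -0.76 for the receptors, -0.67 for the DSL ligands and 0.42 for receptor cleavage.

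On the plane of log2(FPKM + 1) in ESCs and in NCs, the entries nearest to Notch2, the counted gene with the highest ratio of NC to ESC, were Snx25, 9530082P21Rik and Rhbdd2, at Euclidean distances of 0.0091, 0.017 and 0.021. The nearest to Notch4 were Hsd17b1, BC055111 and Ankrd1, at 0.059, 0.064 and 0.068. With 2 conditions, such likeness means similar levels in both and no more.

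Markers of cell types were read beside these genes. All 8 pluripotency markers were at least 2-fold lower in NCs, and their summed FPKM was 5789 in ESCs and 875 in NCs. Of 8 neural progenitor markers 5 were at least 2-fold higher, among them Pax6, Sox1 and Hes5. Hes5 is also the target gene past 2-fold given above, so these lists are not separate. The 2 that were at least 2-fold lower were Sox2, with 258 FPKM in ESCs against 74.1 in NCs, and Fabp7. The summed FPKM of these 8 markers was 301 in ESCs and 245 in NCs. Of 6 neuronal markers counted, 0 were at least 2-fold higher and all 6 were lower, 3 of them at least 2-fold. Tubb3 had 33.4 FPKM in ESCs against 7.54 in NCs. Dcx, the marker not counted, had 0.0140 FPKM in ESCs against 0.334 in NCs. The counted neuronal markers thus went against the name Neuronal Cells, and Dcx, at a low level, did not. The summed FPKM of the 7 markers in each list was 62.9 in ESCs and 39.6 in NCs for endothelium. There, Pecam1 went from 24.7 to 2.79 FPKM and Tek from 3.34 to 1.59. Kdr went from 0.339 to 0.697 and Esam from 0.800 to 1.40. Cdh5 was at 0.291 and 0.297, Tie1 at 0.712 and 0.730 and Egfl7 at 32.7 and 32.1. The sum was 4.51 and 4.15 for presomitic mesoderm and 7.99 and 20.5 for endoderm. For fibroblasts it was 21.6 and 47.6, and Lum was listed at 0 in ESCs. Of 6 fibroblast markers counted, 4 were at least 2-fold higher in NCs and 1 at least 2-fold lower. The lower one was Thy1, with 9.64 FPKM in ESCs against 1.80 in NCs. The part of these cell types in the results was not tested, and in such bulk samples fewer cells of a type and less RNA per cell cannot be told apart.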

How the data were processed

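RNA-seq was performed on 3 ESC and 3 NC samples of E14Tg2a cells. Per the methods and the submitters' processing notes, the authors used TopHat2 2.0.8, Bowtie2 2.1.0, Cufflinks 2.0.2 and Cuffdiff, with mm10 as the genome. The FPKM values deposited by the authors are 1 per gene and condition. The NC values stand under the heading FPK, which was read as FPKM. The authors' fold changes, test statistics, p-values, q-values and test status in the same table were not used. Depth per sample is not given.

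Ratios were taken without a pseudocount, genes were counted with at least 1 FPKM in 1 condition, and 2-fold was the limit. The test planned for FPKM per sample could not be run on pooled values. Members and lists were chosen with earlier results of these data known. Named are all 10 members, listed genes past 2-fold, the highest gene of each list and the nearest 3 entries to 2 members; others are marked, and 1 listed gene past the limit is not reported here. Xxylt1 was found under an older symbol.

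Fragments were estimated from the lowest values of single-transcript genes, with fragments of 200 bases. FPKM times effective kb clustered at 0.0120 and 0.0138 in ESCs and 0.00715 and 0.0135 in NCs, and the larger step was used with each gene's longest GENCODE M21 transcript. Within 3% of these steps lay 60.7% of 229 values in ESCs and 61.1% of 296 in NCs. This estimate was added after the data were seen. On simulated data the fold rule found 100 of 100 genes planted 4-fold higher and 100 of 100 planted 4-fold lower. The planted folds carried no noise, so this outcome was fixed in advance. It checks that the rule was applied as written and gives no error rate for the calls. Alternatives were other pseudocounts, filters, fold limits and scalings. Python 3.11.15, numpy 2.4.6, pandas 2.3.3 and matplotlib 3.10.9 were used.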

Additional observations from a re-analysis of the deposited data

How the results depend on the processing

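All 12 alternatives kept the direction of each of the 10 genes they could be applied to, but only the rescalings could have changed it. Fold limits, filters and pseudocounts cannot turn a direction. Each rescaling raised every log2 ratio, so only genes with the lower FPKM in NCs could have turned. Several genes lie close to the 2-fold limit, and the counts changed with the settings. The number of members at least 2-fold lower in NCs (3) was 0 with 1 FPKM added, 0 at a 4-fold limit and 1 with equal FPKM totals. It was 4 at a 1.5-fold limit and 2 with 0.1 FPKM added. Requiring at least 1 FPKM in both conditions, or at least 5 FPKM in 1 condition, also gave 2. So did centring on the median, equal upper quartiles, and equal totals without the name-picked entries described below. The number at least 2-fold higher (0) was 2 at a 1.5-fold limit, 2 with equal totals and 1 with equal upper quartiles. It was 2 with equal totals over entries outside the name-picked set of ribosomal protein, small RNA and Gm-numbered entries. That scaling was chosen after seeing the data. Of the pathway genes, 7 were at least 2-fold higher. This was 4 with 1 FPKM added, 12 without a filter, 4 with at least 1 FPKM required in both conditions, 12 at 1.5-fold, 3 at 4-fold and 11 with equal totals. It was 5 with at least 5 FPKM in 1 condition and 9 with equal totals over the other entries. The 6 that were lower became 3 with 1 FPKM added, 2 at 4-fold and 3 with equal totals. They became 8 without a filter and 8 at 1.5-fold. They became 4 with at least 1 FPKM in both conditions, 4 with at least 5 FPKM in 1, and 4 with equal totals over the other entries. The log2 ratio of the summed receptors (-0.38) was -0.088 with equal totals and -0.18 with equal totals over the other entries, and that of the summed ligands (-0.54) was -0.25 and -0.34. No row of the table names several genes, so that alternative changed nothing. Leaving out a sample could not be done, because the table holds no values of single samples. No paired analysis was possible because the columns carry no replicate number.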

Other observations

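Of the proneural factors, bHLH proteins known to drive neuronal fate, Neurod1 had 10.1 FPKM in ESCs against 0.259 in NCs, 38.9-fold lower. Neurog2 was under 1 FPKM in both conditions, with 0.0436 FPKM in ESCs against 0.913 in NCs, and was named after its values were seen.

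Of the 3 counted genes for Notch ligands that lack the DSL domain, 1 was at least 2-fold higher in NCs, 1 at least 2-fold lower and 1 within 2-fold. Dlk1, a Delta-like protein known as an inhibitor of the pathway, had 1.34 FPKM in ESCs against 9.65 in NCs, 7.23-fold higher. Dner, a neuronal Delta-like protein, had 1.54 FPKM in ESCs against 0.385 in NCs, 3.99-fold lower. Egfl7 was the highest of this list, with 32.7 FPKM in ESCs against 32.1 in NCs.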
